A study of Sus scrofa with 9 samples.

Results

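The genes described here are the enzymes that release fatty acids from stored fat, with their activator and a receptor that drives the process: PNPLA2, ABHD5, LIPE, MGLL and ADRB3. They were chosen by name, as every probe whose RefSeq accession belongs to one of these symbols in the pig gene table. That gave 5 of the 3196 genes that could be named on the array, with 7 of its 43603 probes: 3 for LIPE and 1 for each of the others. The samples were longissimus dorsi, a muscle of the back, from Bama minipigs, a small Chinese breed. One group of 6 animals ate the high-fat high-sucrose diet (HFHSD), made of 53% basal diet, 37% sucrose and 10% lard, and the other group of 3 animals ate standard pig chow (CD). Both groups were 6 months old when the 23 months of feeding began. In both, the animals were gonadally intact, of either sex, kept in single pens on restricted rations and fasted overnight before dissection. Which animals were male or female is not in the labels, which also name 3 CD animals in one place and 6 in another, while 3 CD arrays were analysed. Each animal had 1 single-colour array. The series title names lipid deposition and inhibited muscle growth, and the comparison of these genes asks how transcripts of fat breakdown differed after the long diet.

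Stored triglyceride is broken down stepwise. PNPLA2, adipose triglyceride lipase, takes off the first fatty acid and is activated by ABHD5, also known as CGI-58. LIPE, hormone-sensitive lipase, then cleaves diglyceride, and MGLL, monoglyceride lipase, completes the release of glycerol. Catecholamines start the process through beta-adrenergic receptors, which raise cAMP and activate protein kinase A; ADRB3 is the receptor best known from fat cells. Muscle fibres hold lipid droplets of their own and express the same enzymes, and fat cells also lie between the fibres. In bulk tissue, fewer cells of a type and less RNA per cell cannot be told apart.

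Levels are log2 signals relative to each array's 75th percentile, so 0 is that percentile, and levels of different probes are not compared. A probe passed if its Benjamini-Hochberg adjusted p in limma, over all tested probes, was below 0.05. The muscle label matched the data: all 19 tested muscle fibre markers, among them 4 of the 5 defining ones, were well above background on all 9 arrays, and the fifth, MB, was not tested. On 8 arrays 51.2% to 68.9% of probes were well above background, and on CD 1 this was 36.8%, so values without CD 1 are given below. The arrays lay on 3 slides. Slide 1 held HFHSD 5 and 6 and was scanned on another day, slide 2 held HFHSD 1, 3 and 4 with CD 1, and slide 3 held HFHSD 2 with CD 2 and 3.

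LIPE was measured higher in HFHSD, by 2.29-fold at its brightest probe, and ABHD5 lower, at 0.590 of its CD level. At these probes no HFHSD array overlapped with a CD array, while at the third LIPE probe the groups overlapped. Neither difference passed the test. PNPLA2, MGLL and ADRB3 differed by less than the spread between arrays. None of the 7 probes passed in limma, where 1.23% of all tested probes passed. An unadjusted p below 0.05 was found for 3 of the 7 probes and for 16.5% of all tested probes. The groups did not overlap for 3 of the 7 probes, 2 of LIPE and the 1 of ABHD5, and this held for 10.9% of all tested probes. By brightest probe 3 genes were higher and 2 lower, with a median difference of 0.16, against -0.085 over all named genes tested.

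**Figure D1:**
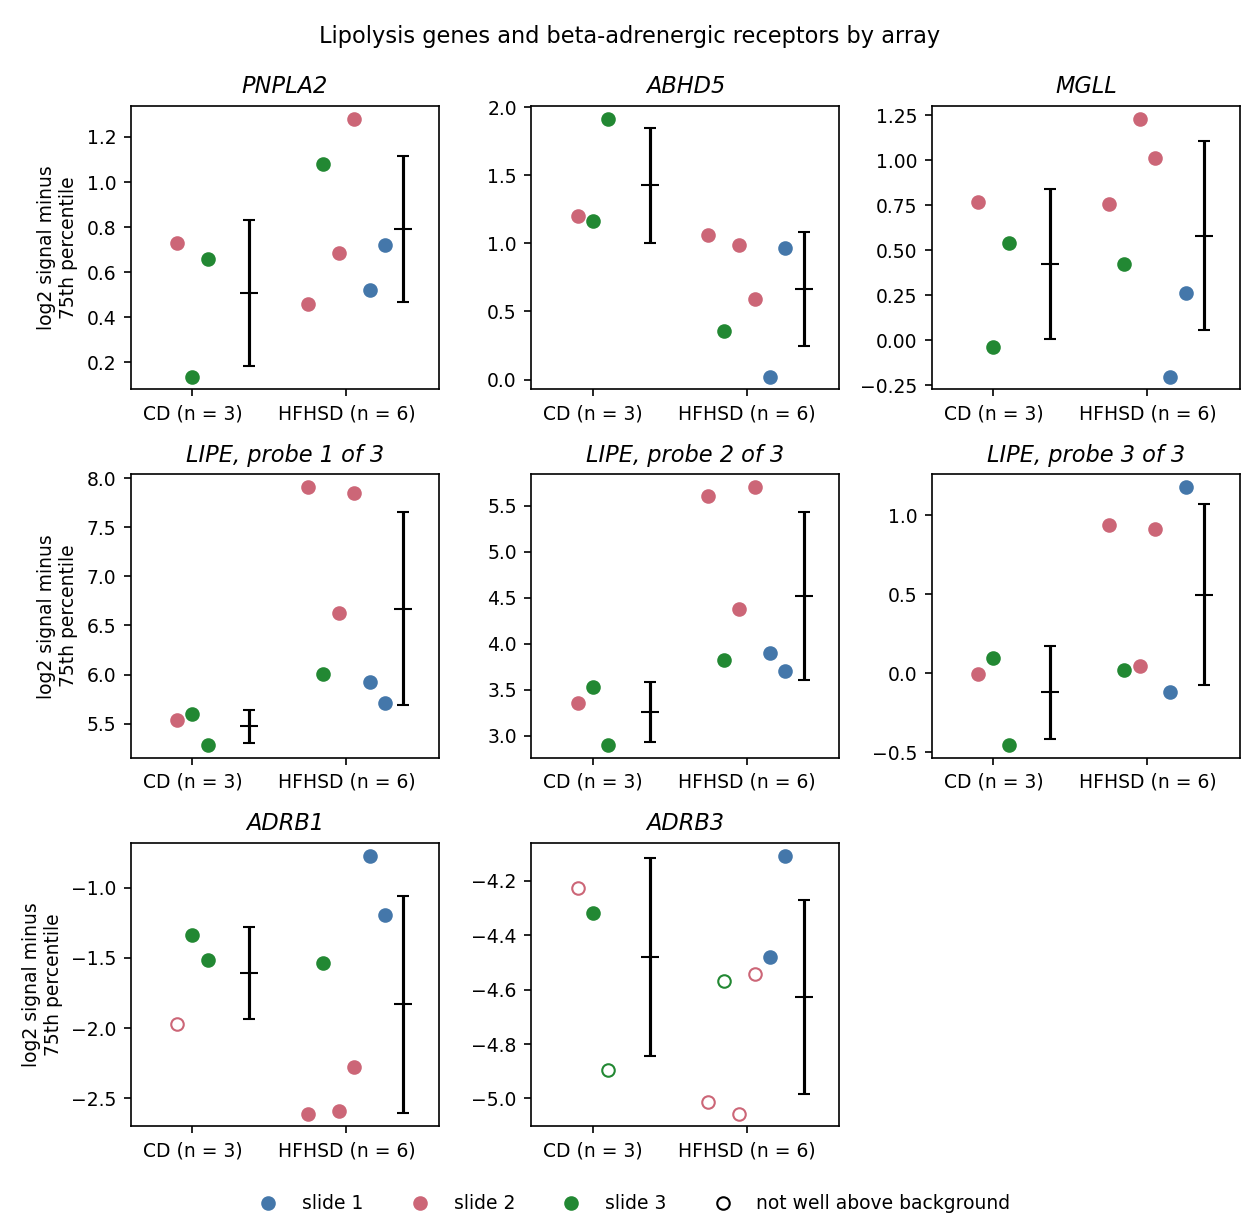
Log2 signal minus the array's 75th percentile (y axis) for each probe of the lipolysis genes, ADRB3 and ADRB1, with 1 point per animal, colour for the slide, open points where the probe was not well above background, and bars for the mean ± SD of the 3 CD and 6 HFHSD arrays. LIPE probes 1 and 2 lie higher on every HFHSD array than on any CD array, ABHD5 lies lower on every HFHSD array, and ADRB3 has open points on 6 of the 9 arrays.

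PNPLA2, which starts triglyceride breakdown, had levels of 0.73, 0.14 and 0.66 on CD 1 to 3. On the HFHSD arrays its lowest level was 0.46, the median 0.70 and the highest 1.28. The groups overlapped: CD 2 lay below every other array, and only HFHSD 2 and HFHSD 4 lay above all CD arrays. CD averaged 0.51 ± 0.32 (SD, n = 3) against 0.79 ± 0.32 (SD, n = 6) for HFHSD, a log2 difference of 0.28 (SE 0.24, limma adjusted p = 0.641). Its 95% interval, from -0.26 to 0.82, corresponds to a fold between 0.836 and 1.77. The PNPLA2 difference was 0.39 without CD 1, 0.097 without CD 2 and 0.18 without HFHSD 4, and within slides it was 0.080 on slide 2 and 0.68 on slide 3.

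ABHD5, the activator of PNPLA2, had levels of 1.20, 1.16 and 1.92 on CD 1 to 3. The HFHSD arrays ran from 0.022 through a median of 0.78 to 1.07. All 6 HFHSD arrays lay below all 3 CD arrays, with HFHSD 5 the lowest and CD 3 well above the rest. The CD mean was 1.43 ± 0.42 (SD, n = 3), the HFHSD mean 0.66 ± 0.42 (SD, n = 6). The log2 difference was -0.76 (SE 0.29, 95% interval -1.41 to -0.11), with an unadjusted p of 0.0257 and an adjusted p of 0.223 in limma. Activator and lipase differed in opposite directions as measured, and neither passed. The ABHD5 difference was -0.88 without CD 1 and -0.52 without CD 3. It was -0.32 within slide 2, -1.19 within slide 3, and -0.47 (adjusted p = 0.609) when the background was corrected by the normexp model.

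LIPE had 3 probes. The brightest read 5.54, 5.60 and 5.28 on CD 1 to 3. On HFHSD 1 to 6 it read 7.91, 6.01, 6.63, 7.85, 5.92 and 5.71. The CD arrays lay close together, and the HFHSD arrays were spread from just above them to far above, with HFHSD 1 and HFHSD 4 the highest. Mean levels were 5.47 ± 0.17 (SD, n = 3) with CD but 6.67 ± 0.98 (SD, n = 6) with HFHSD, a log2 difference of 1.20 (SE 0.52, 95% interval 0.034 to 2.36). The unadjusted p was 0.0447 and the adjusted p 0.290 in limma, and without CD 1 the difference was 1.23. The 3 highest HFHSD arrays, HFHSD 1, 3 and 4, were all on slide 2, and the part of the slide in this spread was not tested. The difference was 1.92 within slide 2 and 0.57 within slide 3, and a fit that held slide as a fixed block gave 1.29 (adjusted p = 0.179).

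The second LIPE probe gave the same picture. It read 3.35, 3.52 and 2.90 on CD 1 to 3, and from 3.70 through a median of 4.13 to 5.70 on the HFHSD arrays. Again no array overlapped and HFHSD 1 and HFHSD 4 were the highest, with a log2 difference of 1.26 (SE 0.49, adjusted p = 0.237). Across the 9 arrays, probes 1 and 2 had a Pearson r of 0.992, given as a description since both were measured on the same RNA. The third LIPE probe read -0.0030, 0.098 and -0.46 on CD 1 to 3 and from -0.12 through 0.48 to 1.18 on the HFHSD arrays. There the groups overlapped: HFHSD 1, 4 and 6 lay above all CD arrays and the other HFHSD arrays among them. Its log2 difference was 0.61 (SE 0.34, adjusted p = 0.415), and its r with the first probe was 0.615. HFHSD 6, the highest array of probe 3, was the lowest HFHSD array of probes 1 and 2, so the probes disagreed on that animal.

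MGLL, which acts last in the chain, read 0.77, -0.039 and 0.54 on CD 1 to 3. The HFHSD arrays ran from -0.20 through a median of 0.59 to 1.23. The groups overlapped over most of their range, with HFHSD 3 and HFHSD 4 above all CD arrays and HFHSD 5 below them. CD averaged 0.42 ± 0.42 (SD, n = 3) against 0.58 ± 0.52 (SD, n = 6) for HFHSD, a log2 difference of 0.16 (SE 0.33, adjusted p = 0.872). The 95% interval of the fold ran from 0.669 to 1.86. The sign rested on CD 2: without it the difference was -0.073, and without CD 1 it was 0.33. Within slides 2 and 3 it was 0.23 and 0.17.

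**Figure D2:**
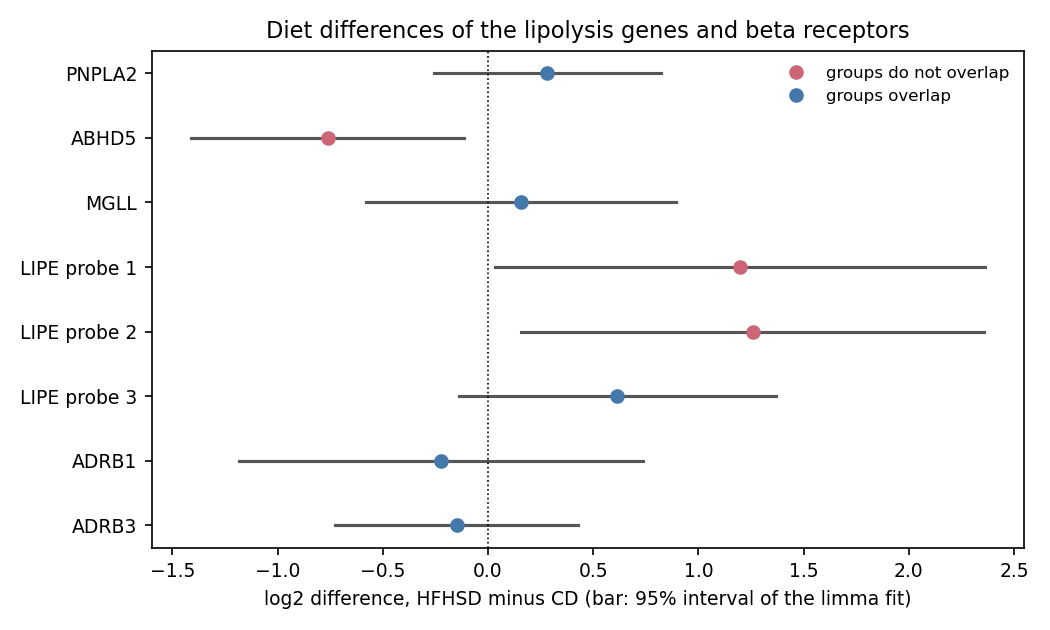
Log2 difference HFHSD minus CD (x axis) with its 95% interval from the limma fit for each probe of the lipolysis genes, ADRB3 and ADRB1, coloured by whether the groups overlap. The intervals of LIPE probes 1 and 2 lie above 0 and that of ABHD5 below 0, while no probe shown passed after adjustment over all tested probes.

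ADRB3, the beta receptor of fat cells, gave a very weak signal in this muscle. The scanner software called it well above background on CD 2, HFHSD 5 and HFHSD 6 alone, and its processed signal ran from 5.01 to 17.2 over all arrays. Its levels were -4.23, -4.32 and -4.90 on CD 1 to 3, and on the HFHSD arrays from -5.06 through a median of -4.56 to -4.11. The groups overlapped fully, with both ends of the range in HFHSD. The log2 difference was -0.15 (SE 0.26, adjusted p = 0.843), with a 95% interval of the fold from 0.604 to 1.35, and without CD 1 it was -0.021. Quantile normalisation turned the sign, to 0.55, so no direction is given. A difference in ADRB3 was not detectable at this signal.

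ADRB1, the beta receptor best known from the heart, was looked at beside ADRB3. It read -1.97, -1.33 and -1.51 on CD 1 to 3, and from -2.61 through a median of -1.91 to -0.77 on the HFHSD arrays. The groups overlapped, with both ends of the range in HFHSD. The log2 difference of ADRB1 was -0.22 (SE 0.43, adjusted p = 0.860), and without CD 1, where the probe was not well above background, it was -0.41.

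Whether the genes differed unequally with diet was tested on their differences within each array, by an exact two-sided permutation test over the 84 splits of the arrays into 6 and 3, for all 10 pairs of the 5 genes. The smallest p this test can give is 0.0119. LIPE relative to ABHD5 was higher by 1.96 in HFHSD, and all 6 HFHSD arrays exceeded all CD arrays (permutation p = 0.0238, adjusted p = 0.119). PNPLA2 relative to ABHD5 was higher by 1.04 (5 of 6 HFHSD arrays above all CD arrays, permutation p = 0.0357, adjusted p = 0.119). MGLL relative to ABHD5 was higher by 0.92, also on 5 of 6 arrays, with the same p-values. No pair passed after adjustment. A lone pair at the smallest possible p could not pass over 10 pairs, so this does not show that the genes differed equally. LIPE and PNPLA2 differed unequally by 0.91 (permutation p = 0.179, adjusted p = 0.298), and PNPLA2 and MGLL by 0.12 (permutation p = 0.702, adjusted p = 0.702). The 3 pairs with the smallest p all contained ABHD5. Pairs with ADRB3 rest on levels that were mostly not above background.

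Adipocyte markers were also measured, since fat cells express LIPE and PNPLA2 strongly. Of 22 listed markers 13 were tested, 10 of them were higher in HFHSD with a median difference of 0.96, and 1, CIDEA, passed. Over all named genes tested the median difference was -0.085 and 0.995% passed. All 5 defining markers were tested, and on no CD array was PLIN1 well above background. With normexp the defining markers differed by 1.76 (ADIPOQ), -0.16 (PLIN1), 0.092 (LEP), 0.47 (CIDEC) and 0.78 (FABP4). CIDEA did not pass with normexp (0.95, adjusted p = 0.222 in limma). Of the 13, 8 were well above background on all 9 arrays, so their mean log2 level rests in part on weak signals. The summed linear level of the 13 ran from 485 to 808 in CD and from 426 to 628 in HFHSD, relative to each array's 75th percentile, and most of it was GPD1, a gene that muscle fibres express too. Their mean log2 level was 0.077, -0.30 and -0.070 on CD 1 to 3 and 0.96, 0.43, 0.94, -0.21, 0.75 and 1.02 on HFHSD 1 to 6. HFHSD 4 alone of its group lay within the CD range, and its LIPE level of 7.85 was the second highest. HFHSD 6 had the highest marker level and the lowest LIPE level of its group, 5.71. HFHSD 1 went the other way, with the highest LIPE level, 7.91, at a high marker level of 0.96.

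Within the 6 HFHSD arrays, the relation of each gene to the mean marker level was tested by exact permutation and adjusted over the 5 genes. LIPE had r = -0.40 (permutation p = 0.478, adjusted p = 0.789) and Spearman rho = -0.26 (permutation p = 0.658, adjusted p = 0.892), and r was 0.23 without the 2 arrays farthest from the median, HFHSD 2 and HFHSD 4. PNPLA2 had r = -0.88 (permutation p = 0.0222, adjusted p = 0.111) and rho = -0.60 (permutation p = 0.242, adjusted p = 0.604). Without HFHSD 2 and HFHSD 4 its r was 0.48 over the 4 arrays left, so its sign rested on those arrays together. It was -0.72 without HFHSD 4 alone and -0.89 without HFHSD 2 alone. An r over 4 arrays is too imprecise to show a relation or its absence. MGLL, ABHD5 and ADRB3 had r of -0.23, 0.40 and -0.14, with adjusted p of 0.789 for each by the permutation test. Their rho values were -0.20, 0.60 and 0.086, with adjusted permutation p of 0.892, 0.604 and 0.919. Over the 4 arrays left without the same 2, r was 0.55, 0.94 and 0.025. Of the HFHSD arrays, ADRB3 was well above background only on HFHSD 5 and HFHSD 6, so its values cannot show a relation or its absence. No relation passed. The part of fat cells in the group differences of LIPE and ABHD5 was not tested beyond these values.

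**Figure D3:**
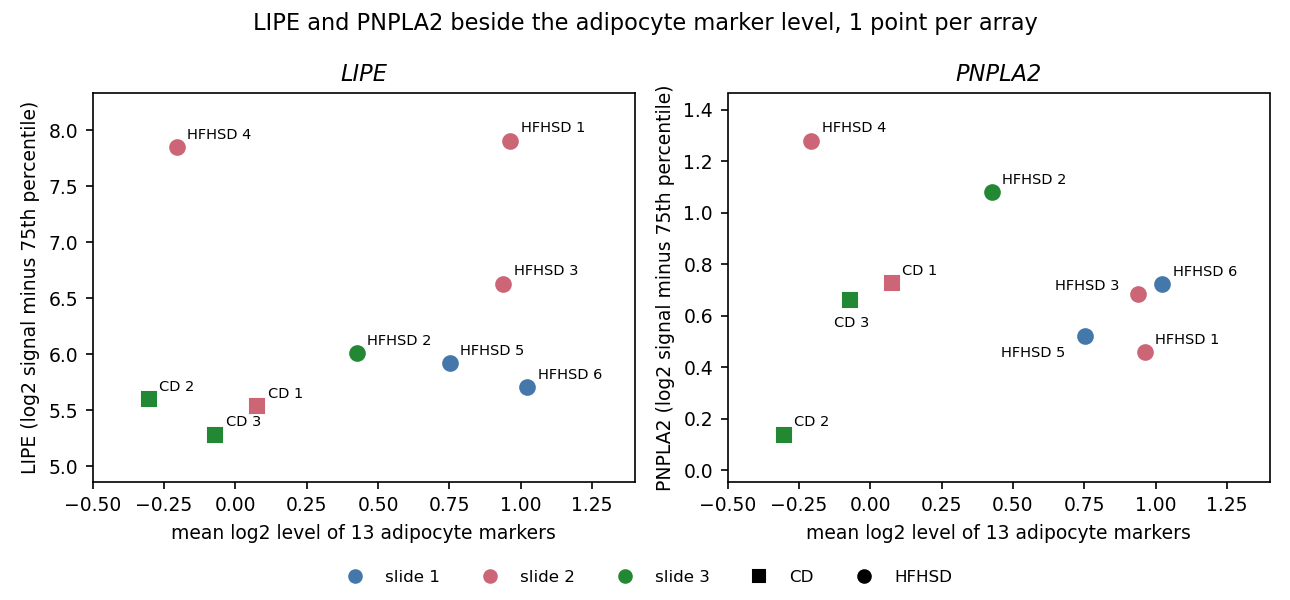
Level of LIPE (brightest probe) and of PNPLA2 (y axes, log2 signal minus the 75th percentile) against the mean log2 level of 13 adipocyte markers (x axis), with 1 labelled point per array, squares for CD, circles for HFHSD and colour for the slide. HFHSD 4 has a high LIPE level of 7.85 at a marker level of -0.21, and HFHSD 6 a LIPE level of 5.71 at the highest marker level of 1.02. HFHSD 1 has the highest LIPE level, 7.91, at a marker level of 0.96.

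The wider pathway was described with a list of 94 genes of lipolysis and its control. Of these, 55 could be named on the array and 53 were tested by their brightest probe: 26 were higher and 27 lower, 1 rose and 0 fell past the threshold, with 17 at an unadjusted p below 0.05. Of all named genes tested, 0.995% passed and 18.4% had an unadjusted p below 0.05. The groups did not overlap in 14 of the 53, and in 13.1% of all named genes tested, and the median difference was -0.0084 (0.034 with quantile normalisation), against -0.085 over all named genes. The gene that rose was CIDEA, a lipid droplet protein that promotes droplet fusion. It read -0.92, -1.42 and -1.22 on CD 1 to 3 and from -0.27 through 0.27 to 0.92 on the HFHSD arrays. Every HFHSD array lay above every CD array, and the log2 difference in CIDEA was 1.49 (SE 0.28, adjusted p = 0.0378). It missed the threshold with the fixed slide block (1.63, adjusted p = 0.0887) and with normexp (0.95, adjusted p = 0.222), and passed under 9 of 20 alternative settings. Leaving out HFHSD 4 kept the call; leaving out any other single array lost it, with differences from 1.37 to 1.63 and adjusted p up to 0.194. CIDEA is also one of the 6 genes that this list shares with the tested adipocyte markers.

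Among the 8 tested lipases and their activator, 6 were higher and 2 lower, with a median of 0.22, and none passed. PNPLA3, a relative of PNPLA2 that acts on droplet lipids, had a large difference of 3.48 (SE 0.94, adjusted p = 0.0993), but only 1 of 3 CD arrays measured it above background, the groups overlapped, and normexp gave 1.34. It read -4.22, -4.76 and -2.61 on CD 1 to 3 and ran from -3.17 to 1.73 on the HFHSD arrays. LIPA, the lipase of lysosomes, was higher by 0.83 (adjusted p = 0.237; 0.16 with normexp). LPL, the lipase that acts on circulating lipoproteins, differed by 0.12 (adjusted p = 0.947), and its sign turned when single arrays were left out (-0.16 to 0.36).

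Of the 7 tested receptors, 4 were higher and 3 lower, and none passed. The median of 0.051 became -0.15 with normexp and percentile scaling, and 0.10 with normexp and quantile normalisation. NPR2, a natriuretic peptide receptor, was lower on all 6 HFHSD arrays by 0.41 on the log2 scale (adjusted p = 0.241). The alpha receptors ADRA2B and ADRA2A, which oppose lipolysis, differed by 0.73 (adjusted p = 0.640) and 0.39 (adjusted p = 0.751). Both signs turned with normexp and percentile scaling, to -0.090 and -0.048. They did not turn with normexp and quantile normalisation (0.33 and 0.23). Of the 9 cAMP and kinase genes, 4 were higher, 5 were lower and none passed. PRKG1, a cGMP-dependent kinase, was higher on all 6 HFHSD arrays by 1.46 (adjusted p = 0.0884; 0.57 with normexp), and was well above background on 2 of 3 CD arrays. GNAS, the G protein subunit through which beta receptors raise cAMP, differed by -0.30 without overlap (adjusted p = 0.441). Normexp with percentile scaling turned this to 0.21, and normexp with quantile normalisation gave -0.18. PDE4B, which degrades cAMP, and AKAP1, which anchors protein kinase A, differed by -0.59 (adjusted p = 0.373; -0.23 with normexp) and -0.52 (adjusted p = 0.537).

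Insulin restrains lipolysis, and of the 4 tested genes of its signalling none passed. The insulin receptor substrate IRS1 differed by 0.58 (adjusted p = 0.350; 0.12 with normexp), the phosphatase subunits PPP2CA and PPP1CA by 0.21 (adjusted p = 0.712) and -0.16 (adjusted p = 0.853), and the kinase AKT1 by -0.16 (adjusted p = 0.768). Among the 8 inhibitors and droplet partners, 3 were higher and 5 lower, with a median of -0.16. The 3 were CIDEA, CIDEC and PLIN1, all also adipocyte markers. CIDEC, a relative of CIDEA, was higher by 2.06 without overlap (adjusted p = 0.115; 0.47 with normexp). PLIN1 is the droplet coat protein that holds ABHD5 in resting fat cells. Set against the dimmest signals well above background on the CD arrays, the PLIN1 mean in HFHSD was at least 1.1-fold higher (adjusted p = 0.286). That bound leaves out the spread between arrays. PLIN1 was measured on 5 of 6 HFHSD arrays, and the groups overlapped, with HFHSD 4 and HFHSD 5 below CD 1. Normexp turned the sign of PLIN1, to -0.16, and normexp with quantile normalisation gave 0.048. PLIN2, PLIN3 and PLIN5, the droplet coats that muscle also uses, differed by -0.42 (adjusted p = 0.659), -0.13 (adjusted p = 0.847) and -0.22 (adjusted p = 0.916). These signs were not stable: normexp gave 0.085 for PLIN2, normexp with quantile normalisation 0.034 for PLIN3, and the fixed slide block 0.34 for PLIN5. CAV1, a caveolar coat protein, differed by -0.59 (adjusted p = 0.301), which became -0.052 under normexp.

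**Figure D4:**
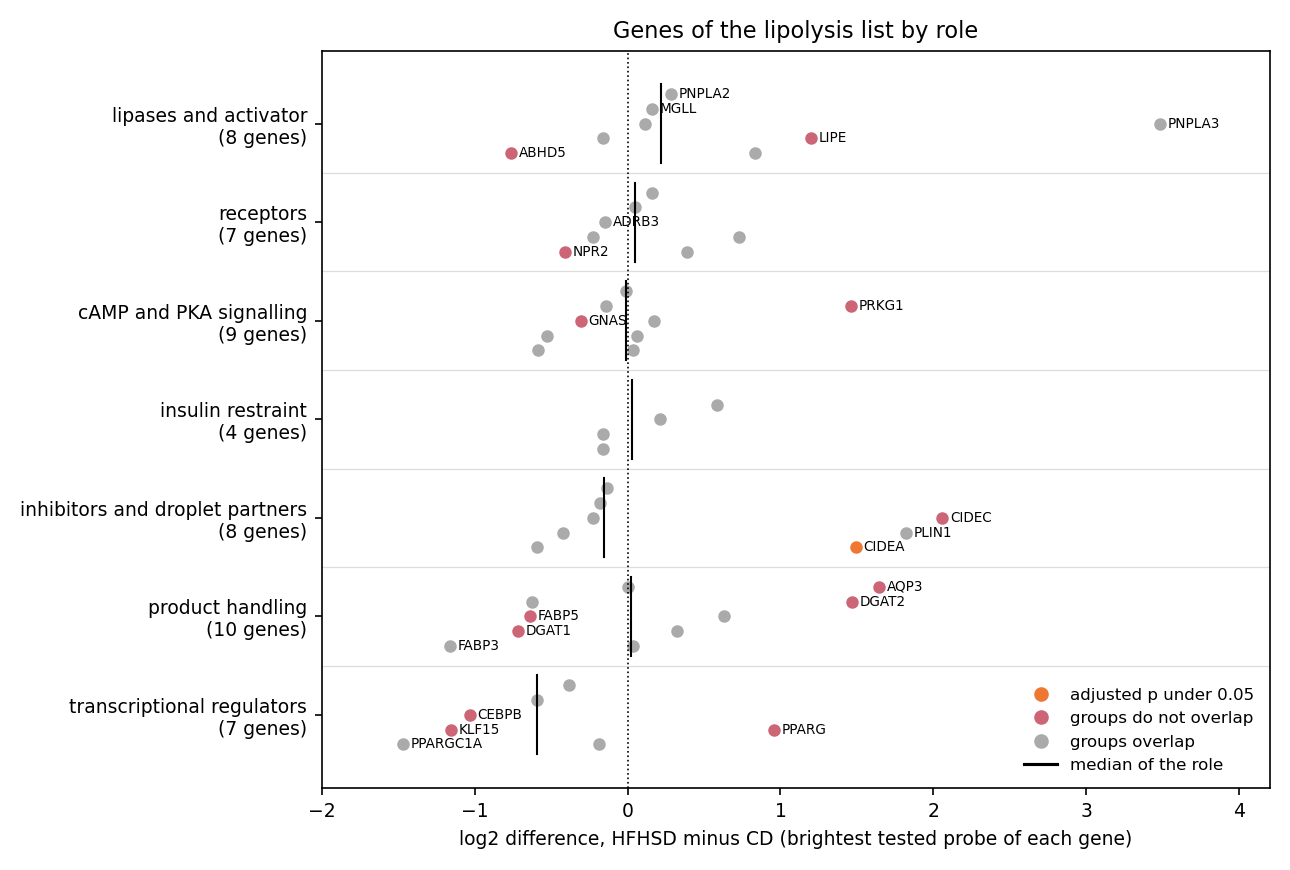
Log2 difference HFHSD minus CD (x axis) of the 53 tested genes of the lipolysis list by their brightest probe, grouped by role, with 1 point per gene, colour for the call and for overlap of the groups, and a black line at each role's median. CIDEA at 1.49 is the only gene that passed, and 6 of the 7 transcriptional regulators lie below 0.

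Of the 10 genes that handle the released fatty acids and glycerol, 6 were higher, 4 lower and none passed. DGAT2 and DGAT1, which both rebuild triglyceride, differed in opposite directions without overlap: DGAT2 was higher by 1.47 (adjusted p = 0.0744; 0.37 with normexp) and DGAT1 differed by -0.72 (adjusted p = 0.0899; -0.48 with normexp). AQP3, a channel for glycerol, was not well above background with CD. Its measured HFHSD mean was at least 1.80-fold higher, a bound that leaves out the spread between arrays (adjusted p = 0.0819 in limma). Normexp gave -0.22 with percentile scaling and 0.26 with quantile normalisation. FABP5, a fatty acid carrier, differed by -0.64 (adjusted p = 0.208), without overlap, and by -0.21 with normexp. Of the 7 transcriptional regulators of these genes, 1 was higher, 6 were lower and none passed. PPARG, the main regulator of fat cell genes and another adipocyte marker, was higher by 0.96 without overlap (adjusted p = 0.119). CEBPB, KLF15 and PPARGC1A, which respond to cAMP or fasting, differed by -1.03 (adjusted p = 0.153), -1.15 (adjusted p = 0.157) and -1.47 (adjusted p = 0.321). The groups did not overlap for CEBPB and KLF15, and overlapped for PPARGC1A. The PPARGC1A level was highest on CD 3, and without that array the difference was -0.60.

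The named genes whose levels followed each lipolysis gene most closely over the 9 arrays, among 2612 compared, are given as a description; all levels come from the same arrays and share their scaling and the diet groups. For PNPLA2 they were DPP4 (r = 0.944), SGK1 (r = 0.927) and BDNF (r = 0.916), with rho of 0.967, 0.717 and 0.767 and r of 0.957, 0.947 and 0.906 within the HFHSD arrays. LIPE was followed by HS6ST1 (r = 0.921), SAT1 (r = 0.909) and STX12 (r = 0.890), with rho of 0.967, 0.917 and 0.683 and r of 0.899, 0.852 and 0.938 within HFHSD. MGLL was followed by SOD1 (r = 0.920), COL5A3 (r = 0.917) and OTUB1 (r = 0.905), with rho of 0.933, 0.933 and 0.883 and r of 0.921, 0.939 and 0.889 within HFHSD. For ABHD5 they were CBY1 (r = 0.970), LRRC59 (r = 0.964) and LOC100517855 (r = 0.949), with rho of 0.900, 1.0 and 0.983 and r of 0.933, 0.950 and 0.933 within HFHSD. For ADRB3, whose levels were mostly not above background, they were CEP250 (r = 0.877), GZMH (r = 0.847) and PLIN3 (r = 0.845), with rho of 0.900, 0.883 and 0.833 and r of 0.954, 0.847 and 0.902 within HFHSD. PLIN3, a droplet coat protein, was the only one of these 15 that is also on the lipolysis list.

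The directions of the main genes were followed through the other ways of processing. No probe of PNPLA2, LIPE, MGLL or ABHD5 passed in any of 20 alternatives, nor ADRB3 in the 19 that tested it. LIPE was higher in all 20, by 0.95 to 1.59, with adjusted p from 0.136 to 0.607. ABHD5 was lower in all 20, with differences from -0.89 to -0.47 and adjusted p from 0.120 to 0.634. PNPLA2 was higher in all 20, by 0.097 to 0.41. MGLL kept its sign in 19 of 20 and ADRB3 in 17 of 19. Many of these alternatives could not turn a sign. The identical value table, the other filters and the variance trend left each difference as it was. So did the mean of a gene's probes for every gene but LIPE, the only one with more than 1 probe. Leaving out an array could not turn LIPE or ABHD5, whose groups did not overlap at the brightest probe.

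**Figure D5:**
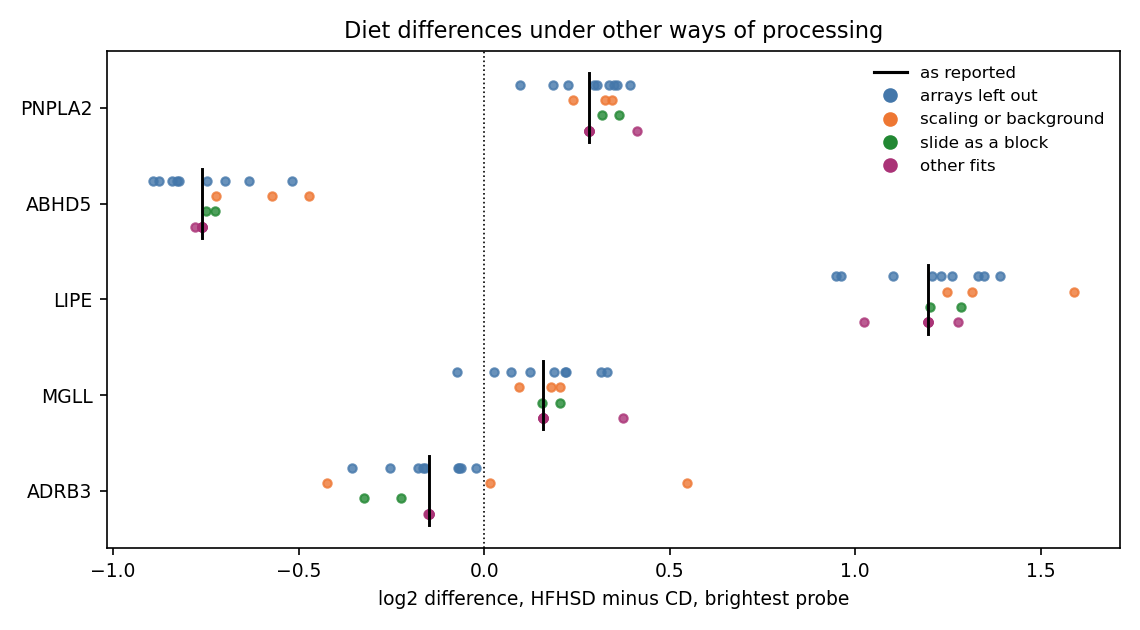
Log2 difference HFHSD minus CD (x axis) of the brightest probe of each lipolysis gene and of ADRB3, with 1 point per alternative way of processing, colour for its kind and a black line at the reported value. LIPE stays between 0.95 and 1.59 and ABHD5 between -0.89 and -0.47, while the points of ADRB3 and MGLL lie on both sides of 0.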

How the data were processed

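Muscle RNA of 9 Bama minipigs was measured on Agilent porcine arrays with Cy3. Per the file headers, the authors extracted spots with Agilent Feature Extraction 10.7.3.1; the deposited files hold processed signals as linear intensity values, background-subtracted and not scaled between arrays, with other columns that hold the software's calls of background, saturation and outliers. The deposited value table held the same intensities, with 0 spots differing. Control and outlier spots were left out, 22 probes of 43603 were lost, and spots of a probe were averaged as log2 signal minus the array's 75th percentile. Probes well above background on at least 3 arrays were tested, 27925 in all. Accessions named 6891 probes of 3196 genes through RefSeq names of the Sscrofa11.1 assembly. No coordinates are given, since the array files name no build. A gene is represented by its brightest tested probe.

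The diet comparison used limma 3.58.1 under R 4.3.3 (lmFit and eBayes, two-sided, Benjamini-Hochberg over all tested probes, threshold 0.05). The same procedure was also run on simulated data. On the measured arrays the fit passed 344 probes, 194 higher and 150 lower. Each array is another animal, so the spread includes that between animals, and the number of arrays limits the precision. Replicate numbers follow accession order and pair nothing. The genes and lists were chosen with earlier results of these data known, and 1 listed gene is not reported here. Named are the lipolysis genes with every probe, list genes that passed, the 4 with the smallest p in each role, and the 3 genes most like each lipolysis gene. ADRB1 as well as LPL, PLIN2, PLIN3 and PLIN5 were named after their values were seen. A bound ("at least") sets the HFHSD mean against the mean over CD arrays of the higher of the probe's own signal and the lowest signal well above background. It holds for the measured means and takes no account of their spread. The 20 alternatives were the identical value table, quantile scaling, normexp (offset 50, on median signals since the files hold no mean signal), other filters, slide as a block, array weights, a variance trend, the mean of a gene's probes and leaving out each array. Normexp named alone was followed by percentile scaling, and it was also run with quantile normalisation.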

Additional observations from a re-analysis of the deposited data

How the results depend on the processing

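Of the 5 genes, no probe passed under any alternative. The PNPLA2 difference was 0.68 within slide 3. The ABHD5 difference was -0.32 within slide 2 and -1.19 within slide 3. ADRB3 was -0.65 within slide 2, and its sign turned with quantile normalisation (0.55) and with normexp followed by quantile normalisation (0.017). Leaving out 1 array gave MGLL differences from -0.073 to 0.33. The cause was not tested. Over all tested probes 344 passed; 88 did with normexp and percentile scaling, 856 with normexp and quantile normalisation, 66 without a filter, 736 among probes above background on all 9 arrays, 84 with slide held fixed and 677 with slide random, as a block, 1205 with array weights, 612 with a variance trend, and 25 to 324 without 1 array. That count was 25 without CD 3, 32 without CD 1, 87 without CD 2, 75 without HFHSD 3, 93 without HFHSD 6, 99 without HFHSD 2 and 161 without HFHSD 5. Of the lipolysis list 1 gene passed; 0 did with normexp and percentile scaling, without a filter and with the fixed block, 2 with normexp and quantile normalisation and among probes above background on all arrays, 3 with array weights, and 0 to 3 without 1 array (3 without HFHSD 4, 0 without any other). Normexp with percentile scaling moved the median of all tested probes from -0.024 to -0.17. Without 1 array, r with the adipocyte marker level within HFHSD ran from -0.80 to 0.33 for LIPE and from -0.55 to 0.29 for MGLL (highest without HFHSD 4), and from -0.66 to 0.041 for ADRB3 (0.035 without HFHSD 1, 0.041 without HFHSD 3). For PNPLA2 that r ran from -0.92 to -0.72, and for ABHD5 from 0.30 to 0.74. No paired analysis was possible because each array is a different animal and the labels give nothing that pairs animals across diets.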
